A study of Mus musculus with 18 samples.

Results

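Genes that mark pericytes and vascular smooth muscle cells were followed through RNA sequencing of sorted mouse brain endothelial cells. They were chosen by symbol, and 10 of the 21638 genes in the deposited table matched: Pdgfrb, Rgs5, Kcnj8, Abcc9, Vtn, Notch3 and Cspg4, which mark mainly pericytes, and Acta2, Myh11 and Tagln, which encode contractile proteins of smooth muscle. Cells were taken from the cortex of adult mice on day 7 after middle cerebral artery occlusion (MCAO, a surgical model of ischaemic stroke) or a sham operation, by sorting for CD31 and against CD41 and CD45. CD31 is the product of Pecam1. Sham and MCAO mice, labelled as wild type, gave libraries from the side of the operation (ipsilateral) and from the opposite side (contralateral). Ipsilateral libraries alone came from occluded mice labelled Hdac2 ECKO (Hdac2 lox/lox:Cdh5CreERT2) or Ezh2 ECKO (Ezh2 lox/lox:Cdh5CreERT2), in which a tamoxifen-activated Cre driven by the endothelial Cdh5 promoter is meant to delete the floxed gene. Every library, wild type included, is labelled with tamoxifen at 75 mg per kg. Each of the 6 groups held 3 libraries. The labels give no batch, and they do not say whether a library is 1 mouse or a pool, or whether libraries with the same number share a mouse, so p-values measure the spread between these libraries, which may be partly technical.

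Pericytes and smooth muscle cells are together called mural cells. They sit on the outer side of the endothelial tube within a shared basement membrane. Pericytes cover capillaries and the brain is known for its dense coverage, while smooth muscle cells ring arteries and arterioles and set their width. Endothelial cells secrete PDGF-B, which recruits mural cells through the receptor PDGFR-beta, and present Notch ligands to the receptor Notch3. A sort for an endothelial surface protein is meant to leave mural cells behind. Levels of the genes are given as CPM, a gene's count over the TMM-scaled total of its library in the usual unit, or as a percentage of the summed counts of Cldn5, the main tight-junction claudin of brain endothelium, and Pecam1. In bulk RNA, fewer mural cells and less RNA per mural cell cannot be told apart.

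RefSeq promoter windows (build GRCm38.p6) matched 7 of the 10 genes. None was matched for Pdgfrb, Myh11 and Tagln, so Acta2 was the only contractile gene searched. The stretches before Rgs5 and Vtn are shown because Rgs5 gave the most counts and Vtn the smallest adjusted p-value in a planned comparison. Capitals mark the letters CCNNNNNNGG, the outer frame of the CArG box, which serum response factor binds in front of contractile genes. Positions are counted from the RefSeq start, where -1 is the base before it. The Rgs5 stretch is chr1:169655251-169655500 on the plus strand, with sites at -123 and -22, and the Vtn stretch is chr11:78498870-78499090 on the plus strand, with 1 site at -166. Of Acta2, the smooth muscle actin gene with well-studied CArG elements, 2 windows of 30 bases on the minus strand are shown, with sites at -84 (chr19:34255438-34255467) and -34 (chr19:34255388-34255417). In each of these, 5 of the 6 inner letters are A or T, and both lie within an annotated Acta2 exon. A further Acta2 match at -168, with 4 inner letters A or T, is not shown.
Rgs5: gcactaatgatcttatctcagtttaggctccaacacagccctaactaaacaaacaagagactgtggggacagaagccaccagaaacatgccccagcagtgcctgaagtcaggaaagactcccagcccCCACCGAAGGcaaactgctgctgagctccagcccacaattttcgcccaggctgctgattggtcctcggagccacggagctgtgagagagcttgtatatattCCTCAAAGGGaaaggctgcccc
Vtn: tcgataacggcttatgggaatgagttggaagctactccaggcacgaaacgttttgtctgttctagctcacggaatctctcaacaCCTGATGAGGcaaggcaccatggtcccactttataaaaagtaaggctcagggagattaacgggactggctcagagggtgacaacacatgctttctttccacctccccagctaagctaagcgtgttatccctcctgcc
Acta2, site at -84: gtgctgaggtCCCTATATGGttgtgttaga
Acta2, site at -34: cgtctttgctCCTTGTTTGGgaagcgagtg
The CArG box with A or T at each inner letter was in 0 of 7 windows of these genes, read on both strands, and in 1.63% of 32851 mouse windows of the same length. CCNNNNNNGG, added after that search, was in 7 of 7 and in 73.3% of all windows. GTGGGAA, a core bound by the Notch effector RBPJ, was in 0 of 7 and in 6.38%. None of these matches was tied to a measurement here.

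Total counts ran from 25791401 to 57576255 per library, and the endothelial reference from 15045 counts (MCAO contralateral replicate 1) to 127851 (MCAO ipsilateral replicate 2). A floor of 3 counts was worth 0.0619 to 0.101 CPM. All 13 listed endothelial markers had counts in every library. The targeted genes did not separate downwards from MCAO ipsilateral: with its own deletion label Hdac2 was at 57.6 to 87.9 CPM, overlapping MCAO ipsilateral at 68.2 to 96.1 CPM, and Ezh2 was at 8.41 to 19.7 CPM, above MCAO ipsilateral at 4.44 to 7.84 CPM. The table sums whole genes, so a loss of single exons would not be seen. The libraries labelled Ezh2 ECKO stood apart in red cell genes, with 70.8 to 671 summed CPM against 19233 to 297884 CPM elsewhere. Replicates 1 and 2 with the Hdac2 ECKO label held 297884 and 251343 CPM, above all other libraries, and replicate 3 held 49282 CPM, within MCAO ipsilateral at 38269 to 65459 CPM. Of the 6 red cell genes, 4 were higher with the Hdac2 ECKO label than in MCAO ipsilateral at an unadjusted p under 0.05, edgeR called 0 and DESeq2 1. Of all genes, 9.85% had an unadjusted p under 0.05 there in either direction, edgeR called 0.0117% and DESeq2 1.40%. A set of 1464 olfactory and vomeronasal receptor genes, which endothelial cells are not known to use, summed to 1522 CPM in MCAO contralateral replicate 1 and 1555 CPM in the library labelled Ezh2 ECKO replicate 2, and to 164.5 to 580.8 CPM in the others.

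Read per gene length (RPKM, CPM per kilobase of the deposited gene length), the mural genes lay far below the endothelial ones. The median over 18 libraries was 812 RPKM for Cldn5 and 55.6 RPKM for Pecam1. Rgs5, a regulator of G-protein signalling and the best-known pericyte transcript, had a median of 8.10 RPKM, and Tagln (transgelin, an actin-binding protein) 6.42 RPKM. These neighbours were not ordered: Rgs5 was above Tagln in 8 of 18 libraries. Tagln was above Acta2 (3.33 RPKM) in 18 of 18, and Acta2 above Vtn (3.01 RPKM) in 12 of 18. Vtn encodes vitronectin, an adhesive matrix protein that brain pericytes secrete.

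The other 6 genes were lower still. Myh11, the smooth muscle myosin heavy chain, had a median of 0.432 RPKM and lay below Vtn in 15 of 18 libraries. Notch3 followed at 0.204 RPKM, Abcc9 at 0.142, Pdgfrb at 0.110, Kcnj8 at 0.0600 and Cspg4, the proteoglycan NG2, at 0.0490 RPKM. Within these 5 genes no neighbour was above the next in more than 12 of 18 libraries, so their order is not fixed. Kcnj8 and Abcc9 encode the pore and the regulatory subunit of a potassium channel of mural cells and are neighbours on chromosome 6, with 16247 bases between them. Pdgfrb had no count in 1 library, Abcc9 in 2 and Kcnj8 in 2. A count of 0 in MCAO ipsilateral replicate 2 allows up to 0.0662 CPM if each count is independent, and more if both mates of a read pair were counted.

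**Figure D1:**
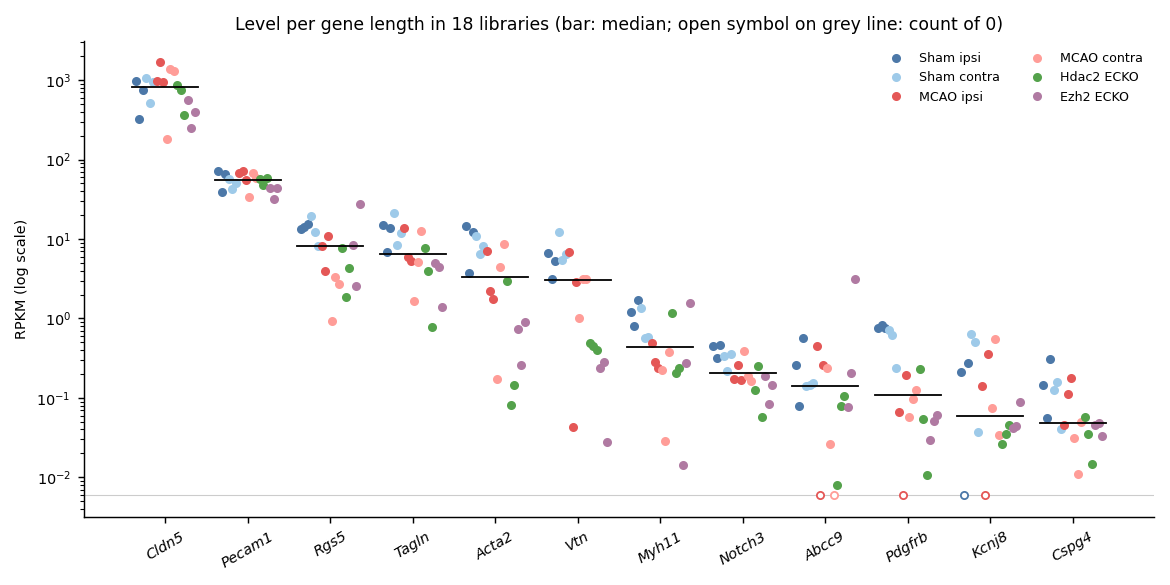
RPKM on a log axis for Cldn5, Pecam1 and the 10 mural genes, 1 point per library coloured by group, with a bar at the median of 18 libraries; open symbols stand for a count of 0. Both endothelial genes lie above every mural gene's median, from 8.10 RPKM (Rgs5) to 0.0490 RPKM (Cspg4).

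The 10 genes together were a larger share of the endothelial reference in sham libraries than in occluded wild-type libraries. Summed counts were 8.60%, 15.2% and 11.3% of Cldn5 plus Pecam1 in Sham ipsilateral and 10.8%, 11.3% and 6.13% in Sham contralateral. They were 5.80%, 1.42% and 4.69% in MCAO ipsilateral and 3.74%, 1.93% and 3.05% in MCAO contralateral. No MCAO library reached the lowest sham library of either side. The group means were 11.7% ± 3.32 (SD, n = 3) against 3.97% ± 2.28 (SD, n = 3) ipsilaterally and 9.41% ± 2.85 (SD, n = 3) against 2.91% ± 0.910 (SD, n = 3) contralaterally. The mean log2 differences were -1.75 and -1.70, and no p-value is given for a sum over chosen genes. By CPM, with no endothelial reference, they were -1.02 and -1.79. Ipsilaterally the difference was -1.13 without MCAO ipsilateral replicate 2. By CPM the ipsilateral groups lay side by side without overlap, at 106.2 to 165.3 CPM in sham and 40.2 to 104.0 CPM in occluded mice.

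Libraries labelled Hdac2 ECKO held 4.44%, 1.65% and 2.91%, within the range of MCAO ipsilateral. Those labelled Ezh2 ECKO held 4.92%, 4.92% and 20.4%. The third of these was the highest of all 18 libraries by this measure. Without it the mean log2 difference from MCAO ipsilateral was 0.54 in place of 1.22, and by CPM with all libraries it was -0.15, so the direction depended on the reference. In the Ezh2 ECKO-labelled libraries the reference itself was low: Cldn5 was at 349 to 801 CPM against 1353 to 2369 CPM in MCAO ipsilateral, a log2 fold change of -1.58 ± 0.56 (SE), and Pecam1 differed by -0.69 ± 0.31 (edgeR, adjusted p = 0.138 and 0.229).

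**Figure D2:**
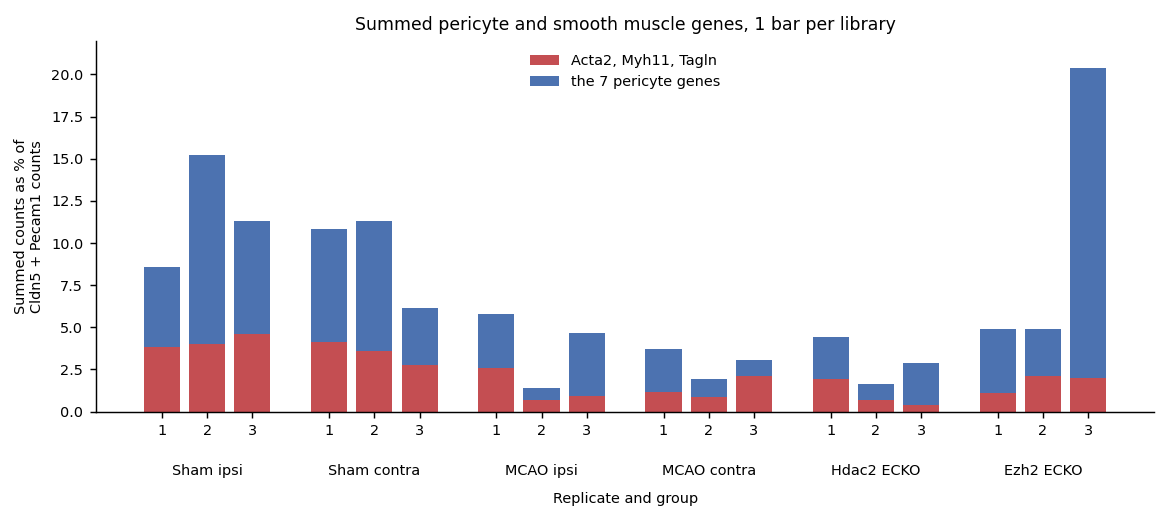
Summed counts of the 10 genes as a percentage of Cldn5 plus Pecam1 counts, 1 bar per library, split into the 3 contractile genes and the 7 pericyte genes. The 6 MCAO libraries of wild-type mice lie between 1.42% and 5.80%, below the 6 sham libraries at 6.13% to 15.2%, and the third library labelled Ezh2 ECKO reaches 20.4%.

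That library was high in some members only. It held 124.5 CPM of Rgs5, against 37.8 and 11.6 CPM in replicates 1 and 2 of its group, and 26.1 CPM of Abcc9, against 0.647 and 1.70 CPM. Myh11 was at 11.9 CPM there, against 0.108 and 2.07 CPM. Vtn, in contrast, was at its lowest of all 18 libraries, at 2 counts or 0.0559 CPM, and Tagln at 2.79 CPM was the lowest of its group. Rgs5, Abcc9 and Myh11 thus stood high while Vtn and Tagln stood low in a single library.

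The plot by library shows each gene on the same percentage scale, and the account that follows takes the members by role.

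**Figure D3:**
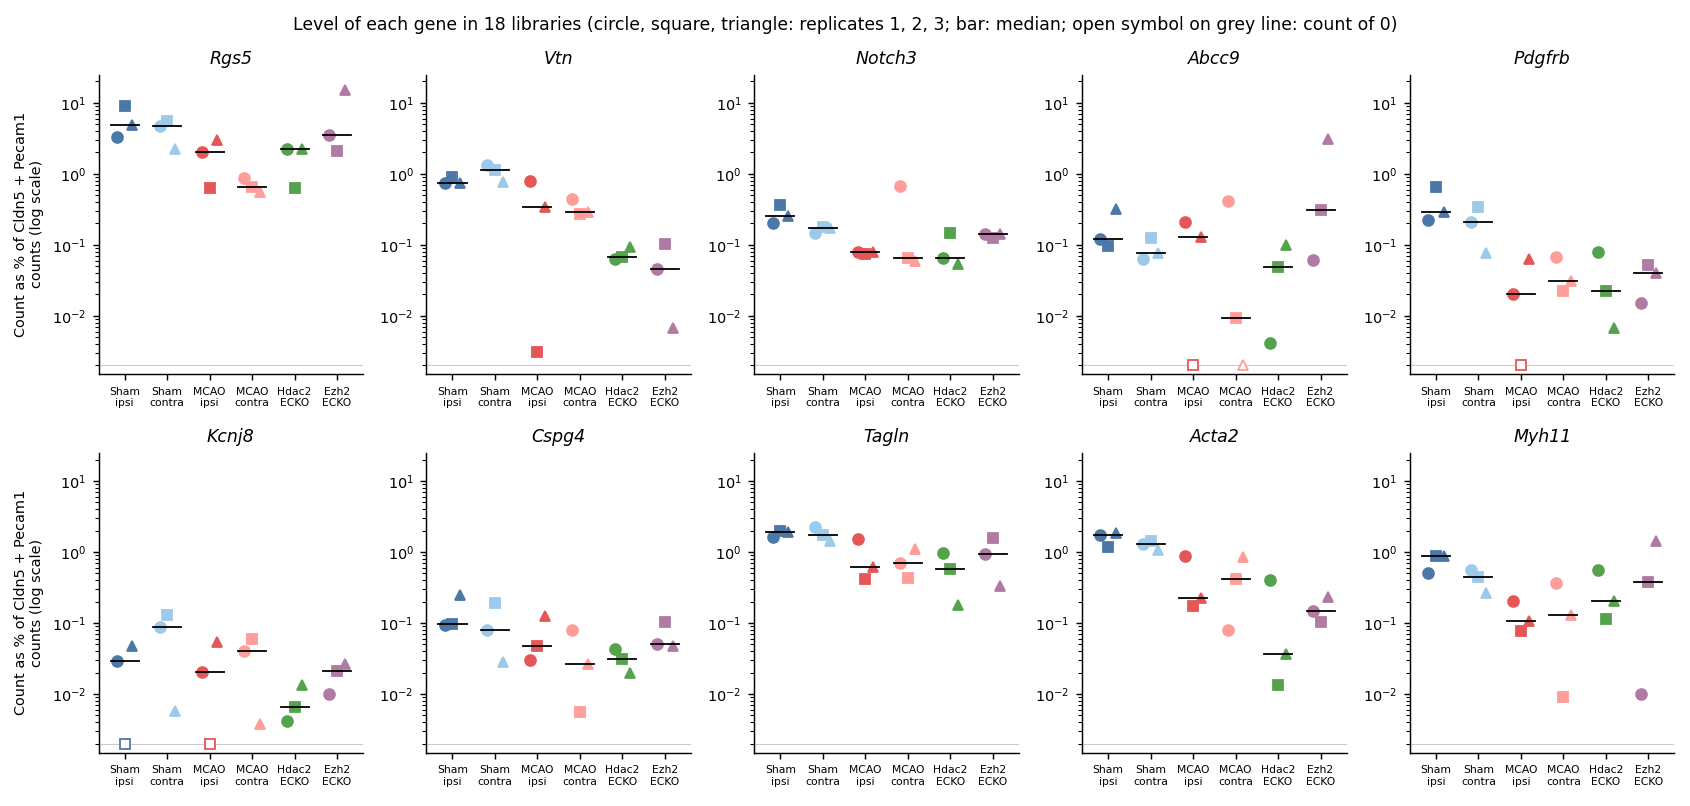
Count of each gene as a percentage of Cldn5 plus Pecam1 counts in 18 libraries, on a log axis shared by all panels, with replicates as circle, square and triangle, a bar at the group median and open symbols for a count of 0. Acta2 lies at 1.08% or more in the 6 sham libraries and at 0.877% or less in the 12 occluded ones.

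Among the receptors, Pdgfrb (mm10 chromosome 18, 61045150 to 61085061, plus strand), the receptor for endothelial PDGF-B, was lower in every occluded library than in any sham library by CPM. It was at 4.17, 4.48 and 4.20 CPM in Sham ipsilateral and 3.88, 3.36 and 1.30 CPM in Sham contralateral. In MCAO ipsilateral it was at 0.365, 0 and 1.05 CPM, and in MCAO contralateral at 0.313, 0.523 and 0.686 CPM. With the Hdac2 ECKO label it was at 1.26, 0.301 and 0.0588 CPM and with the Ezh2 ECKO label at 0.162, 0.284 and 0.335 CPM. All 12 occluded libraries below all 6 sham libraries is a pattern that held for 0.0293% of genes tested; the gene was singled out after its values were seen. As a percentage of Cldn5 plus Pecam1, 11 of the 12 were below. The log2 fold change was -3.17 ± 1.30 (SE) for MCAO against Sham ipsilaterally and -2.48 ± 1.26 contralaterally (edgeR quasi-likelihood test, adjusted p = 0.645 and 0.920), so neither passed. In counts the step was from 54 to 202 in sham libraries to 0 to 44 in occluded ones.

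Notch3 (chromosome 17, 32120820 to 32166852, minus strand), the Notch receptor of smooth muscle cells and pericytes, was at 3.67, 2.55 and 3.75 CPM in Sham ipsilateral and 1.41, 2.07 and 1.34 CPM in MCAO ipsilateral, with no overlap. Contralaterally, 2.71, 1.75 and 2.91 CPM in sham mice overlapped with 3.17, 1.55 and 1.31 CPM after occlusion. The high contralateral value came from MCAO contralateral replicate 1, the library with the smallest total. The log2 fold changes were -1.04 ± 0.84 (SE) and -0.29 ± 0.83 (SE). Cspg4 (chromosome 9, 56865033 to 56899870, plus strand), which can bind PDGF, had 6 to 136 counts per library, and its groups overlapped in every wild-type comparison by CPM.

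Rgs5 (chromosome 1, 169655501 to 169695813, plus strand) was at 61.5, 63.5 and 70.1 CPM in Sham ipsilateral and 36.7, 17.8 and 50.0 CPM in MCAO ipsilateral. Contralaterally it was at 88.3, 55.2 and 37.0 CPM in sham mice and 4.17, 15.3 and 12.5 CPM after occlusion. The groups did not overlap on either side, and the contralateral MCAO libraries also lay below the ipsilateral ones. The log2 fold change was -2.50 ± 0.69 (SE) for the contralateral comparison, with an unadjusted p of 0.00154 and an adjusted p of 0.920 in edgeR. It was -0.90 ± 0.66 (SE) for the ipsilateral comparison and 1.71 ± 0.67 (SE) for MCAO ipsilateral against contralateral. The test of the difference between these side effects, the interaction, gave 1.60 ± 0.93 (SE, edgeR adjusted p = 0.941), so a side-specific effect was not shown.

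Vtn (chromosome 11, 78499091 to 78502324, plus strand) was at 13.6, 6.38 and 10.8 CPM in Sham ipsilateral and 24.9, 11.0 and 13.0 CPM in Sham contralateral. After occlusion it was at 14.0, 0.0883 and 5.84 CPM ipsilaterally and 2.07, 6.40 and 6.38 CPM contralaterally. The lowest of these came from MCAO ipsilateral replicate 2, with 4 counts, which also had no count of Pdgfrb, Abcc9 or Kcnj8 and the highest Cldn5 level, 2369 CPM. With the Hdac2 ECKO label Vtn was at 0.991, 0.903 and 0.823 CPM, and with the Ezh2 ECKO label at 0.485, 0.568 and 0.0559 CPM. All 6 lay below the 6 sham libraries and below the other 2 libraries of MCAO ipsilateral. The log2 fold change against MCAO ipsilateral was -2.87 ± 1.05 (SE) for Hdac2 ECKO and -4.15 ± 1.12 (SE) for Ezh2 ECKO (edgeR adjusted p = 0.426 and 0.0583). For Ezh2 ECKO, DESeq2 called Vtn (-3.95, adjusted p = 0.0016), while the other alternatives with edgeR gave -4.73 to -2.88 and did not, and over all alternatives the adjusted p reached 0.216. Both comparisons share the MCAO ipsilateral libraries.

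The channel genes were too sparse to order the groups. Kcnj8 (chromosome 6, 142564837 to 142571614, minus strand) had 0 to 64 counts per library and at most 1.64 CPM. Abcc9 (chromosome 6, 142587862 to 142702315, minus strand) had 0 to 933 counts, and its second-highest library after the third one labelled Ezh2 ECKO held 176.

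Of the contractile genes, Acta2 (chromosome 19, 34241090 to 34255590, minus strand), smooth muscle alpha-actin, was at 31.9, 8.15 and 27.0 CPM in Sham ipsilateral and 24.2, 14.2 and 18.2 CPM in Sham contralateral. It was at 15.7, 4.85 and 3.83 CPM in MCAO ipsilateral and 0.376, 9.80 and 18.9 CPM in MCAO contralateral. With the Hdac2 ECKO label the values were 6.48, 0.181 and 0.323 CPM and with the Ezh2 ECKO label 1.62, 0.568 and 1.96 CPM. By CPM sham and occluded libraries overlapped, but as a percentage of Cldn5 plus Pecam1 all 12 occluded libraries (0.0133% to 0.877%) were below all 6 sham libraries (1.08% to 1.85%). That held for 0.0176% of genes tested, and the gene was again singled out after its values were seen. In edgeR the log2 fold change was -1.46 ± 1.09 (SE) ipsilaterally and -0.96 ± 1.08 (SE) contralaterally, and -2.56 ± 1.14 (SE) for Ezh2 ECKO against MCAO ipsilateral (adjusted p = 0.787, 0.921 and 0.226). Single libraries moved the first 2 values: that of Acta2 ipsilaterally was -2.36 without MCAO ipsilateral replicate 1, and contralaterally it was -0.40 without MCAO contralateral replicate 1 and -1.89 without MCAO contralateral replicate 3.

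Tagln (chromosome 9, 45929619 to 45936058, minus strand) was at 29.6, 13.7 and 27.7 CPM in Sham ipsilateral and 27.5, 11.9 and 10.4 CPM in MCAO ipsilateral, which overlap. As a percentage of the reference it was 1.61% to 1.96% and 0.421% to 1.53%, which do not. Myh11 (chromosome 16, 14194535 to 14291372, minus strand) was at 9.24, 6.10 and 12.8 CPM in Sham ipsilateral against 3.69, 2.16 and 1.82 CPM in MCAO ipsilateral, and at 10.2, 4.34 and 4.42 CPM against 1.72, 0.218 and 2.87 CPM contralaterally. Neither pair overlapped. The log2 fold changes of Myh11 were -1.87 ± 1.11 (SE) and -1.98 ± 1.11 (SE, edgeR adjusted p = 0.745 and 0.920).

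Over the planned comparisons, edgeR called 0 of the 10 genes, all of which had passed the filter of at least 10 counts in at least 3 libraries. In MCAO against Sham ipsilaterally it called 0% of all 17094 genes tested. There, 1 member (Pdgfrb) and 7.08% of all genes had an unadjusted p under 0.05, and DESeq2 called 0 members and 0.415% of genes. Of the members, 9 were below 0 (54.1% of all genes), with a median log2 fold change of -0.76 against -0.09 for all genes, and 4 of 10 had no overlap with lower values (Rgs5, Myh11, Notch3, Pdgfrb; 14.4% of all genes). On the percentage scale this was so for 6 of 10 and for 22.2% of all genes. Contralaterally edgeR again called 0% of genes, 1 member (Rgs5) and 4.41% of genes had an unadjusted p under 0.05, and DESeq2 called 0 members and 0.152% of genes. There 10 of 10 were below 0 (40.7% of all genes), with a median of -1.42 against 0.17, and 4 did not overlap (Vtn, Rgs5, Myh11, Pdgfrb; 6.01% of all genes). On the percentage scale 5 did not (Pdgfrb, Rgs5, Acta2, Tagln, Vtn; 4.32% of all genes).

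The 2 sides of the occluded brain gave no common direction. Ipsilaterally 6 members were higher and 4 lower than contralaterally (53.7% of all genes were lower), edgeR called 0 members and 0% of genes, and 1 member (Rgs5, higher) and 3.08% of genes had an unadjusted p under 0.05; DESeq2 called 0 members and 0.0351% of genes. Rgs5 alone did not overlap between the sides by CPM (higher ipsilaterally, as in 3.48% of all genes), and on the percentage scale it overlapped. In sham mice 3 of 10 were lower on the operated side (45.2% of all genes), Pdgfrb alone did not overlap by CPM (higher, as in 8.43% of genes), with 0 members and 0% of genes called by edgeR, 0 members and 1.85% of genes at an unadjusted p under 0.05, and 0 members and 0.0351% of genes called by DESeq2. The interaction of side and occlusion gave 0 members and 0% of genes by edgeR, 0 members and 3.38% of genes at an unadjusted p under 0.05, and 0 members and 0.0351% of genes by DESeq2, with 3 of 10 members and 53.2% of genes below 0.

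In the groups labelled as deletions, Hdac2 ECKO against MCAO ipsilateral had 8 of 10 members below 0 (45.2% of all genes), with a median of -1.32 against 0.11 for all genes. edgeR called 0 members and 0.0117% of genes, 1 member (Vtn) and 9.85% of genes had an unadjusted p under 0.05, and DESeq2 called 0 members and 1.40% of genes. Ezh2 ECKO had 7 of 10 below 0 (44.6% of all genes), with a median of -1.03 against 0.17. By CPM, Acta2 and Tagln were lower without overlap, as in 15.3% of all genes. On the percentage scale 0 members were lower without overlap, and of the members Notch3 was higher without overlap. The share of all genes that did the same is not given. Scaling to Cldn5 plus Pecam1 put the median of all genes at 1.54 for Ezh2 ECKO, so Notch3 is not singled out by this. edgeR called 0 members and 1.46% of genes, 2 members (Vtn, Acta2) and 19.2% of genes had an unadjusted p under 0.05, and DESeq2 called 1 member (Vtn) and 9.46% of genes. The 3 members above 0 were Rgs5, Abcc9 and Myh11 (0.74, 2.26 and 0.88), and without the third library labelled Ezh2 ECKO they were at -0.50, -0.75 and -1.23. Between the 2 labels, Hdac2 ECKO against Ezh2 ECKO, Rgs5 had a log2 fold change of -1.46 ± 0.66 (SE) and Abcc9 of -4.13 ± 1.75 (SE, edgeR adjusted p = 0.420 and 0.377). Without the third library labelled Ezh2 ECKO these were -0.23 and -1.13. With all libraries there were 0 members and 0.123% of genes called by edgeR and 5 of 10 members and 55.6% of genes below 0. Vtn alone did not overlap by CPM (higher with the Hdac2 ECKO label, as in 6.87% of genes). On the percentage scale Vtn overlapped, and of the members Cspg4 did not (lower with the Hdac2 ECKO label). The share of all genes that did the same is not given. Scaling to Cldn5 plus Pecam1 put the median of all genes at -0.81 between the labels, so Cspg4 is not singled out either. At an unadjusted p under 0.05 there were 2 members beside 11.2% of genes, and DESeq2 called 0 members and 3.78% of genes.

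Scaling to Cldn5 plus Pecam1 moved the median of all genes from -0.09 to -0.87 in MCAO against Sham ipsilaterally, from 0.17 to 0.58 contralaterally, from 0.11 to 0.83 for Hdac2 ECKO and from 0.17 to 1.54 for Ezh2 ECKO. Relative to that median, 8, 8, 9 and 7 of the 10 members were lower. With Ezh2 ECKO, 4 rather than 7 were then below 0, and between the sides of the occluded brain 6 rather than 4, so these counts depended on the scaling.

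**Figure D4:**
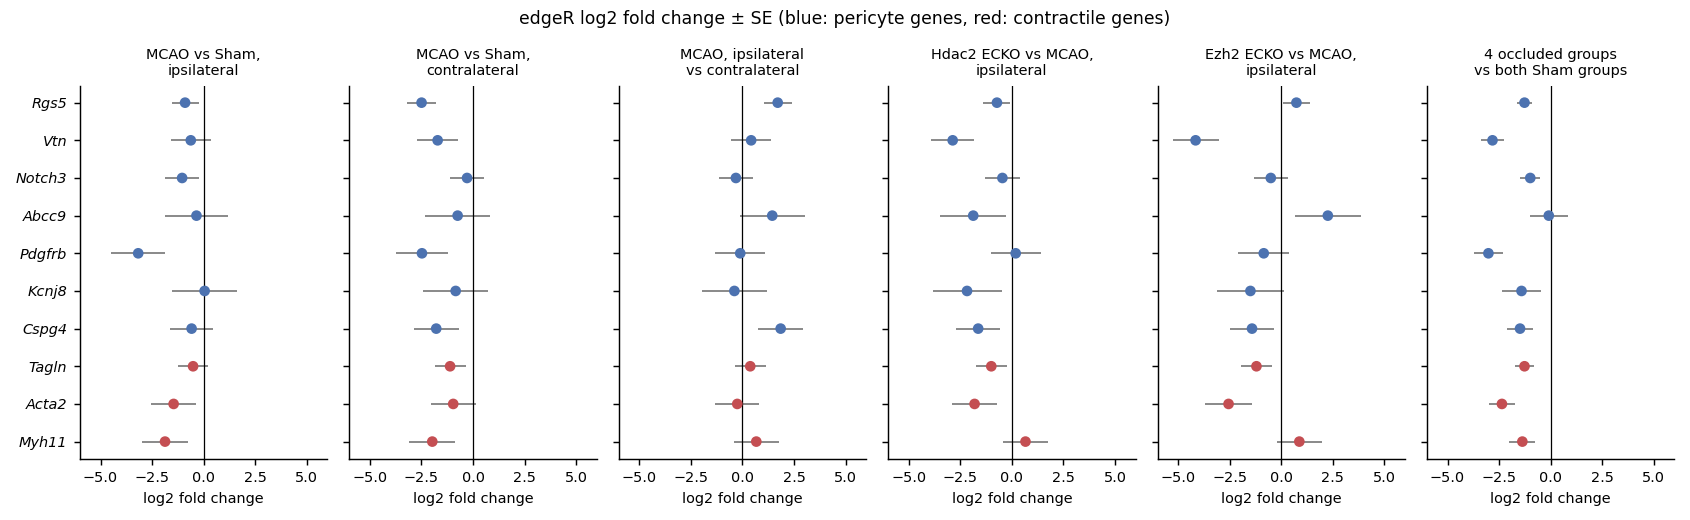
edgeR log2 fold change with its SE for the 10 genes in 6 comparisons, pericyte genes in blue and contractile genes in red. In the comparison of all 4 occluded groups with both Sham groups the 10 points lie between -3.02 (Pdgfrb) and -0.09 (Abcc9).

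After the values had been seen, 2 pooled comparisons were added. They use the same libraries as the comparisons above and are not independent of them. MCAO against Sham over both sides gave values below 0 for 10 of 10 members and 45.8% of all genes, with medians of -1.18 and 0.06. By CPM, Myh11 and Pdgfrb were lower without overlap, as in 1.01% of all genes. edgeR called 0 members and 0.152% of genes, and 3 members (Rgs5, Pdgfrb, Myh11) and 9.09% of genes had an unadjusted p under 0.05. DESeq2 called 2 members, Rgs5 (-1.70, adjusted p = 0.0205) and Pdgfrb (-2.82, adjusted p = 0.00953), and 1.95% of genes; edgeR's adjusted p was 0.173 and 0.239. The mean of all 4 occluded groups against both Sham groups, which joins 3 genotypes, gave values below 0 for 10 of 10 members and 43.9% of all genes (9 members under scaling to Cldn5 plus Pecam1, and 9 under RLE scaling and in DESeq2), with a median of -1.39 against 0.06. edgeR called 0 members and 0.0527% of genes, and 5.48% of genes had an unadjusted p under 0.05, while 7 of 10 members were lower at an unadjusted p under 0.05 beside 2.70% of all genes.

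These 7 were Vtn, Pdgfrb, Acta2, Rgs5, Tagln, Cspg4 and Myh11. Vtn had a log2 fold change of -2.82 ± 0.58 (SE) and Pdgfrb of -3.02 ± 0.71 (edgeR adjusted p = 0.0879 and 0.210). Acta2 had -2.36 ± 0.63 (SE, edgeR adjusted p = 0.313). DESeq2 called these 3 (adjusted p = 0.00049, 0.000756 and 0.0237) and 0.731% of all genes. edgeR called Vtn without a filter on low counts (adjusted p = 0.0413) and without MCAO ipsilateral replicate 2 (0.0370), and Acta2 without Hdac2 ECKO replicate 1 (0.0429). Over all alternatives the adjusted p ran from 0.00049 to 0.485 for Vtn, from 0.000756 to 0.654 for Pdgfrb and from 0.0237 to 0.917 for Acta2. The remaining members were at -0.99 (Notch3), -1.41 (Kcnj8) and -0.09 (Abcc9).

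Of 18 other pericyte genes, 14 were below 0 in MCAO against Sham ipsilaterally (median -0.92 against -0.09 for all genes), 15 contralaterally (-1.05 against 0.17) and 17 in the comparison of all 4 occluded groups (-1.17 against 0.06), with 1, 4 and 7 lower at an unadjusted p under 0.05. Of all genes, 54.1%, 40.7% and 43.9% were below 0, and 2.81%, 1.76% and 2.70% were lower at that level. edgeR called 0 of the 18 in any comparison, and 1 for MCAO against Sham over both sides without MCAO contralateral replicate 3. DESeq2 called 2 for the 4 occluded groups (0.731% of all genes). It called 2 for Ezh2 ECKO (9.46% of all genes) and 1 for Hdac2 ECKO (1.40%) against MCAO ipsilateral. Between these labels it called 1 (3.78% of all genes), and over both sides 1 (1.95%). Their summed level was 88.0 to 95.1 CPM in Sham ipsilateral against 39.5 to 61.9 CPM in MCAO ipsilateral, and 63.2 to 132.6 CPM against 34.8 to 46.2 CPM contralaterally, with no overlap on either side. It was 57.5 to 102.9 CPM with the Hdac2 ECKO label. The most abundant was Pde5a, a phosphodiesterase that degrades cyclic GMP, with a mean of 19.2 CPM and log2 fold changes of -0.93 ± 0.56 (SE) ipsilaterally and -1.73 ± 0.57 (SE) contralaterally. It was higher with the Hdac2 ECKO label than in MCAO ipsilateral, by 1.66 ± 0.57 (SE, edgeR adjusted p = 0.406). Mcam, the adhesion molecule CD146, which endothelial cells also express, had a mean of 14.1 CPM and fold changes of -0.18 and -0.17. Higd1b, a mitochondrial protein and pericyte marker, had -0.78 ± 0.97 (SE) and -2.23 ± 1.01 (SE).

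Of 15 other smooth muscle genes tested out of 16, 11 were below 0 on each side (medians -1.13 and -0.54) and 13 in the comparison of all 4 occluded groups (-0.90). Of all genes, 54.1%, 40.7% and 43.9% were below 0, with medians of -0.09, 0.17 and 0.06. At an unadjusted p under 0.05, 1, 1 and 7 of the 15 were lower, beside 2.81%, 1.76% and 2.70% of all genes. Neither edgeR nor DESeq2 called any of the 15 in these comparisons. Their summed levels overlapped on both sides, at 341.6 to 526.4 CPM in Sham ipsilateral against 444.9 to 478.5 CPM in MCAO ipsilateral, and 424.2 to 574.6 CPM against 239.3 to 665.2 CPM contralaterally. They were 254.3 to 446.4 CPM with the Hdac2 ECKO label and 226.8 to 293.6 CPM with the Ezh2 ECKO label, the latter below MCAO ipsilateral without overlap. Tpm1 and Cald1, which encode tropomyosin 1 and caldesmon and are not limited to muscle, were the most abundant besides Sncg. Tpm1 had fold changes of 0.66 ± 0.39 (SE) and -0.04 ± 0.38 (SE) for the sides, and -1.17 ± 0.39 (SE) for Hdac2 ECKO and -1.04 ± 0.39 (SE) for Ezh2 ECKO against MCAO ipsilateral (edgeR adjusted p = 0.402 and 0.153). Cald1 had -0.68 ± 0.36 (SE) ipsilaterally and -0.79 ± 0.36 (SE) contralaterally for MCAO against Sham. The list's only called gene was Sncg, gamma-synuclein, which neurons also express. With the Ezh2 ECKO label it was at 16.9, 10.8 and 17.5 CPM, against 68.3, 50.8 and 61.2 CPM in MCAO ipsilateral and 101.0, 147.8 and 57.8 CPM with the Hdac2 ECKO label. It fell by 1.99 ± 0.49 (SE) on the log2 scale in Ezh2 ECKO against MCAO ipsilateral and differed by 2.76 ± 0.50 (SE) between the libraries with either deletion label, higher with Hdac2 ECKO (edgeR adjusted p = 0.0438 and 0.0296). Both calls were lost when scaled to Cldn5 plus Pecam1 (-0.71, adjusted p = 0.266, and 2.08, adjusted p = 0.203). The first was lost without any 1 of its 6 libraries (adjusted p 0.0628 to 0.171), and the second without Hdac2 ECKO replicate 1 or 2 or Ezh2 ECKO replicate 2 or 3 (0.0723 to 0.113). The summed level of 8 neuronal genes was also low with the Ezh2 ECKO label, at 47.3 to 83.8 CPM. It was 135.5 to 191.8 CPM in MCAO ipsilateral and 132.1 to 182.1 CPM with the Hdac2 ECKO label. Stmn2 made up most of this sum, with a mean of 140.3 CPM over all libraries, against 2.15 CPM for Nefl. The single neuronal genes had no common direction. For Ezh2 ECKO against MCAO ipsilateral, 3 of 7 tested were above 0 and 4 below (44.6% of all genes were below). For Hdac2 ECKO against Ezh2 ECKO, 3 were above 0 and 4 below (55.6% of all genes were below). The part of neuronal RNA in the Sncg values was not tested.

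Genes of the signals between endothelium and mural cells, 30 in all, had no common direction: 17 were below 0 in MCAO against Sham ipsilaterally, 15 contralaterally and 15 in the comparison of all 4 occluded groups, with medians of -0.09, 0.04 and -0.01. Of all genes, 54.1%, 40.7% and 43.9% were below 0. edgeR called 0 of the 30 in any comparison, and 3, 4 and 3 of the 30 had an unadjusted p under 0.05, beside 7.08%, 4.41% and 5.48% of all genes. Over both sides, edgeR called 1 under RLE scaling, with only the groups compared and without MCAO contralateral replicate 3, and 2 without MCAO contralateral replicate 1. DESeq2 called 6 in Ezh2 ECKO against MCAO ipsilateral (9.46% of all genes) and 2 over both sides (1.95%). It called 1 each in MCAO against Sham contralaterally (0.152% of all genes) and in Hdac2 ECKO against MCAO ipsilateral (1.40%). Between the 2 labels (3.78%) and for the 4 occluded groups (0.731%) it also called 1 each. Pdgfb, the ligand of Pdgfrb, had fold changes of -0.27 ± 0.30 (SE) ipsilaterally and -0.26 ± 0.30 (SE) contralaterally, and Jag1, a ligand of Notch3, of -0.15 ± 0.38 (SE) and 0.30 ± 0.39 (SE). Tek, the receptor for angiopoietins, had -0.77 ± 0.29 (SE) and -0.67 ± 0.29 (SE). Angpt2, the angiopoietin that endothelial cells release, had 1.58 ± 0.51 (SE) and 1.87 ± 0.52 (SE), and 1.73 ± 0.36 (SE) over both sides (edgeR adjusted p = 0.0616). Hes1, a Notch target, was near 0 in both occlusion comparisons (-0.02 and 0.09), and 1.22 ± 0.33 (SE) for Hdac2 ECKO and 0.98 ± 0.33 (SE) for Ezh2 ECKO against MCAO ipsilateral (edgeR adjusted p = 0.301 and 0.119). S1pr1, a sphingosine phosphate receptor of endothelium, had 0.23 and -0.08. Pdgfb, Jag1 and Angpt2 were named for their roles or values after the results were seen.

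Markers of other cells were present at low levels and moved in part with the groups. A list of 10 fibroblast genes, led by Pdgfra and Col3a1, summed to 6.04 to 7.41 CPM in Sham ipsilateral and 7.86 to 16.3 CPM in MCAO ipsilateral. Contralaterally it summed to 4.27 to 4.90 CPM in sham and 1.63 to 10.8 CPM in MCAO libraries. Of the 8 tested, 6 were above 0 on each side, while 54.1% of all genes were below 0 ipsilaterally and 40.7% contralaterally. With the Hdac2 ECKO and Ezh2 ECKO labels the fibroblast genes summed to 4.23 to 16.3 CPM and 1.73 to 17.6 CPM. A set of 7 microglial genes, among them Csf1r and C1qa, summed to 2.53 to 5.65 CPM in Sham ipsilateral and to 8.27 to 23.4 CPM in MCAO ipsilateral, with no overlap. Contralaterally the sums were 3.23 to 7.49 CPM and 6.94 to 14.3 CPM, and with the Hdac2 ECKO and Ezh2 ECKO labels 0.764 to 12.5 CPM and 4.43 to 14.1 CPM. Of the 6 tested, 6 were above 0 ipsilaterally (median 4.32) and 5 contralaterally (median 2.14), 3 and 2 of them higher at an unadjusted p under 0.05. In either direction 7.08% and 4.41% of all genes were at that level. edgeR called 0 of the 6 on either side, and DESeq2 called 1 ipsilaterally, beside 0.415% of all genes. Csf1r, the growth factor receptor of microglia, was at 0.118 to 8.78 CPM over all libraries. Csf1r was higher without overlap in MCAO ipsilateral than in Sham ipsilateral, with a log2 fold change of 0.87 ± 0.91 (SE). It overlapped contralaterally (0.09 ± 0.90 SE, edgeR adjusted p = 0.831 and 0.994). The share of all genes higher without overlap is not given, so the ipsilateral separation does not single Csf1r out. A set of 7 oligodendrocyte genes, among them Cnp, an enzyme of myelin, summed to 11.0 to 13.4 CPM in Sham ipsilateral and 15.4 to 25.2 CPM in MCAO ipsilateral, with no overlap, and to 10.8 to 22.8 CPM and 8.15 to 61.3 CPM contralaterally. With the Hdac2 ECKO and Ezh2 ECKO labels they summed to 7.93 to 12.0 CPM and 1.76 to 16.2 CPM. Of the 5 tested, 3 were above 0 ipsilaterally and 5 contralaterally, with 0 at an unadjusted p under 0.05 and 0 called by edgeR or DESeq2. Astrocyte genes (led by Gja1 and Slc1a3) summed to 30.8 to 92.8 CPM over all libraries. Neuronal genes (led by Stmn2 and Nefl) summed to 57.7 to 111.2 CPM in Sham ipsilateral and 135.5 to 191.8 CPM in MCAO ipsilateral, with no overlap, and to 134.9 to 185.5 CPM and 177.5 to 279.0 CPM contralaterally. Most of these sums was Stmn2, with a mean of 140.3 CPM over all libraries. Of the 7 neuronal genes tested, 3 were above 0 and 4 below ipsilaterally (median -0.74). Contralaterally 5 were above 0 and 2 below (median 2.10). The part of these cells, of red cell RNA or of the receptor background in the mural values was not tested.

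Across the 18 libraries the members moved together only in part. Pearson's r of log2(CPM + 0.5) over the 45 pairs had a median of 0.477 and ran from -0.196 (Abcc9 with Tagln) to 0.861 (Acta2 with Tagln). With group means removed the median was 0.217, and Acta2 with Tagln stayed highest at 0.738. These are descriptions over libraries that share a scaling, and low counts limit the sparse genes. Among 9386 other genes averaging 5 CPM or more, those most like the mean of the contractile genes were Tpm2 (r = 0.921) and Myl9 (0.837), which encode a tropomyosin and a myosin light chain of smooth muscle, then Sugp2, Ddit4l, Wipi2, Aspn, Nkd1 and Cnbd2 at 0.799 to 0.763. Those most like the mean of the pericyte genes were Esm1 (0.842), a gene of endothelial tip cells, then Tnfrsf21, Arhgef5, Plxna1, Plpp3, Ero1lb, Tpm2 and Nrep at 0.814 to 0.747.

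**Figure D5:**
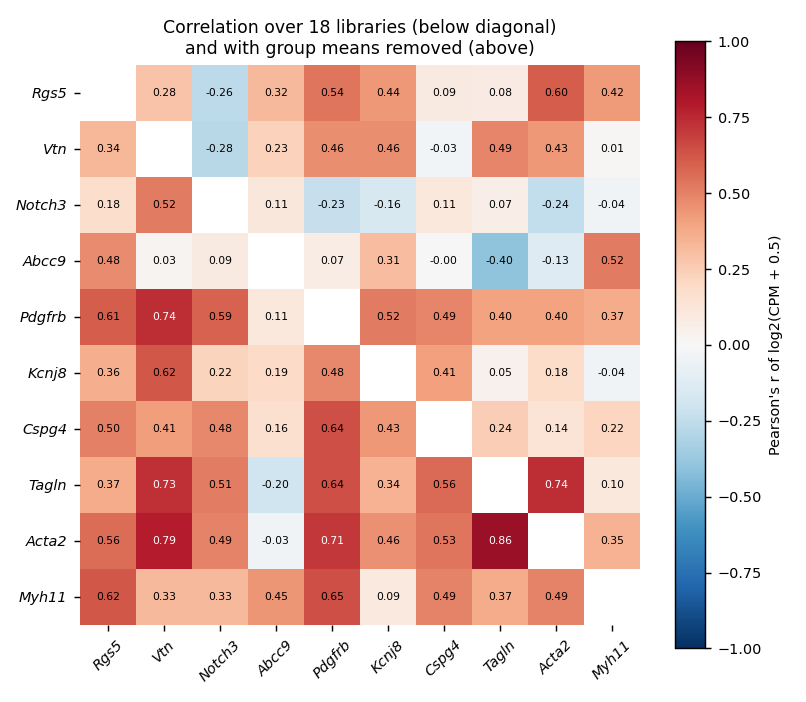
Pearson's r between the 10 genes over 18 libraries, below the diagonal from log2(CPM + 0.5) and above it with group means removed. The highest pair is Acta2 with Tagln, at 0.861 and 0.738, and Abcc9 with Tagln is the lowest below the diagonal, at -0.196.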

How the data were processed

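The authors deposited 1 table of counts per gene for 18 libraries of sorted cells, made with a SMART-Seq v4 PLUS kit and sequenced as read pairs, per the labels' protocols. The submitters' processing notes name FastQC, cutadapt, STAR, featureCounts, DESeq2 and build mm10, without versions or strand setting. The table's name calls the values normalized, yet the deposited counts were whole, differed in total, and 77.3% to 89.4% of those from 1 to 20 were even, as when both mates are counted, so they were treated as unscaled counts. The written design allowed for either case. A total of 0 sample columns were left without a sample. Gene coordinates and lengths were those of the table.

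Counts were fitted with edgeR 4.0.16 in R 4.3.3 (quasi-likelihood F-test, TMM factors, 6 group means, all 18 libraries, at least 10 counts in at least 3 libraries, which kept 17094 genes). Adjusted p-values are Benjamini-Hochberg over those genes, and a gene was called under 0.05. The SE is the log2 fold change over the square root of F. The common biological coefficient of variation was 0.774. No p is given for sums, where 3 against 3 libraries could not go below 0.1 in an exact permutation test. Intervals and floors cover counting error only. They take each count as independent, so they are too small where both mates were counted. The fit was tested on simulated data for Ezh2 ECKO against MCAO ipsilateral, with 200 genes changed, the sparsest genes not among them. At a true log2 change of 2 it called 25.5% of the changed genes, and at 4 it called 80%. Smaller changes were not simulated. A gene that was not called is thus not shown to be unchanged.

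The members, gene lists and tests were chosen with earlier results of these data known. Named were the members, genes called in the mural lists, their 3 most abundant genes, 2 per other cell type and the 8 genes most alike; Pdgfb, Jag1 and Angpt2 were named outside this rule. Alternatives were DESeq2 1.42.0, RLE factors, scaling to Cldn5 plus Pecam1, no filter, the compared groups alone, a replicate block and leaving out each library. The CCNNNNNNGG motif and both pooled comparisons were added after the data were seen. Promoters are from RefSeq. The microglial and oligodendrocyte sets leave out 1 listed gene each, which is not reported here, a choice made after the levels were seen.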

Additional observations from a re-analysis of the deposited data

How the results depend on the processing

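Of 1460 refits of the 100 values (10 genes in 10 comparisons), 1451 stayed on the same side of the threshold, 9 became called and 0 called values reversed; 81 uncalled values changed sign. The number of members called went from 0 to 1 with DESeq2 for Ezh2 ECKO against MCAO ipsilateral, to 2 for MCAO against Sham over both sides, and to 3 for all 4 occluded groups against Sham, where it was 1 with no filter on low counts and 0 to 1 without any 1 library. The summed level of Ezh2 ECKO against MCAO ipsilateral was -0.15 by CPM in place of 1.22. Leaving out 1 library moved that value between 0.54 and 1.61, MCAO against Sham between -2.14 and -1.13 ipsilaterally and -1.98 and -1.43 contralaterally, Hdac2 ECKO against MCAO ipsilateral between -0.91 and 0.10, and MCAO ipsilateral against contralateral between -0.12 and 0.90. DESeq2 called more genes than edgeR in every comparison (1617 against 250 for Ezh2 ECKO against MCAO ipsilateral, and 71 against 0 for MCAO against Sham ipsilaterally). For Ezh2 ECKO edgeR called 5 genes when scaled to Cldn5 plus Pecam1, 12 with the replicate block and 368 with RLE. RLE moved the median of all genes from -0.05 to -0.21 for MCAO ipsilateral against contralateral, from 0.17 to 0.30 for the contralateral comparison and from 0.17 to 0.36 for Ezh2 ECKO. The cause of these shifts was not tested.

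Same-numbered sham libraries had deviations that correlated at 0.18, 0.231 and -0.0613, and same-numbered MCAO libraries at 0.0852, 0.281 and -0.0449. Different numbers gave -0.303 to 0.2 in sham and -0.265 to 0.183 in MCAO libraries. With 3 libraries per group these values cannot decide whether a number marks a shared mouse. The numbers were not taken as pairs because the labels do not state it. If the sides do share a mouse, both pooled comparisons counted its sides as separate libraries. With the replicate number as a block, 0 members were called, and Sncg lost both calls (adjusted p = 0.0706 and 0.0615). Summing the sides by number called 0 members in either pooled comparison. Depth limits Kcnj8, Cspg4, Pdgfrb and Abcc9 most, with median counts of 5, 22.5, 28 and 41 over 18 libraries. Of these medians only that of Kcnj8 is near the floor of 3.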
